A study of Homo sapiens with 54 samples.

Results

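This account compares 2 human prostate cancer cell lines, 22Rv1 and LNCaP, as they stood in vehicle, across the whole expressed transcriptome. The comparison takes the 6 vehicle libraries, 3 of LNCaP and 3 of 22Rv1, out of 54 libraries in the series, and covers the 16026 of 19225 genes and other transcripts that passed a filter on low values. In the series LNCaP, C4-2 and 22Rv1 cells were kept for 12 h in vehicle or in 1 of 5 treatments. These were 100 nM 17-beta-estradiol (E2), 100 nM of the estrogen receptor beta agonist OSU-ERb-12 (OSU), 1 µM of the antiandrogen enzalutamide (Enza), and Enza together with either of the other agents. Vehicle was ethanol, and all cells grew in RPMI medium with 10% serum and antibiotics, so that both lines met whatever steroid hormones that serum held. The labels give both lines as wild type, without naming a gene, and call the 3 libraries of a group biological triplicates. LNCaP was derived from a lymph node metastasis of prostate cancer, and 22Rv1 from a xenograft that relapsed after castration of its host. Each is 1 established line from 1 patient, so a difference between them is a difference between these lines and not between stages or classes of disease. Total RNA was sequenced, and levels are given in counts per 1000000 reads (CPM) decoded from the deposited values.

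Androgens drive the secretory program of luminal prostate cells by switching on a set of genes in the nucleus, and the transcription factors FOXA1 and HOXB13 act at many of the same regulatory sites. Classical androgen-activated genes include the kallikrein proteases, among them prostate-specific antigen. LNCaP is the textbook androgen-dependent line, whereas 22Rv1 grows with little androgen.

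The 6 libraries held 37222868 to 46616173 reads in genes, so that 1 read was worth 0.0207 to 0.0255 CPM. Within a line, Pearson's r between libraries across genes was 0.996 to 0.998, and between the lines it was 0.841 to 0.843, with genes not being independent replicates. A level of at least 1 CPM was reached by 13786 to 13845 genes in the LNCaP libraries and by 14414 to 14547 in those of 22Rv1. Small RNA took 13.3 to 17.9% of reads in LNCaP and 9.68 to 10.5% in 22Rv1, and its part in the results was not tested. The third 22Rv1 library had 0.196% mitochondrial ribosomal RNA against 0.0302 to 0.0637% in the other 5. Without it 13045 genes were called, against 13355 with all 6 libraries and 12989 to 13108 on leaving out each library in turn. Of 13 markers of leukocytes and endothelium, 6 are in the deposited table and 4 were tested. Of these 4, 2 were called lower in 22Rv1 and 1 higher (43% and 40.4% of all genes), with 1 and 1 by at least 2-fold. The summed level of the 6 was lower in 22Rv1, at 5.87 to 7.11 CPM against 25.7 to 27.6 CPM in LNCaP. The single genes did not share a direction. The luminal keratins KRT8 (177 CPM in LNCaP, 125 in 22Rv1) and KRT18 (229.7 and 185 CPM) were present in both lines, and the basal keratin KRT14 was at 0.732 and 0 CPM. KRT14 does not stand for its list: of 7 tested basal or squamous markers 3 were higher and 2 lower in 22Rv1. By at least 2-fold these were 2 and 2. Fewer cells of a type and less RNA per cell cannot be told apart in such bulk samples.

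Most genes differed between the lines, but most of the differences were small. The limma test, with p-values adjusted by the Benjamini-Hochberg method and a threshold of 0.05, called 13355 of 16026 genes (83.3%), of which 6470 (40.4% of those tested) were higher in 22Rv1 and 6885 (43%) lower. Of the called genes 8743 differed by less than 2-fold. A difference of at least 2-fold was called for 4612 genes (28.8%), 2559 higher (16%) and 2053 lower (12.8%). At larger sizes the higher genes outnumbered the lower more clearly, with 573 against 258 at 8-fold or more and 149 against 41 at 32-fold or more. The 3 libraries of each line did not overlap for 13418 genes (83.7%). Protein-coding genes at 1 CPM or more numbered 11725 in both lines, 565 in LNCaP alone and 1190 in 22Rv1 alone. Scaling to total reads moved the median difference of all genes from -0.03 to 0.09 on the log2 scale, a shift that applies to every difference given here, with 7401 genes then higher and 5935 lower. Among 1932 abundant genes, those with a mean of at least 100 CPM, 122 were higher and 172 lower by at least 2-fold. Differences are 22Rv1 minus LNCaP on the scale of log2(CPM + 0.5), which understates those of low genes, and the value after ± is the SD over 3 libraries for a level and the SE for a difference (n = 3 per line throughout).

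**Figure D1:**
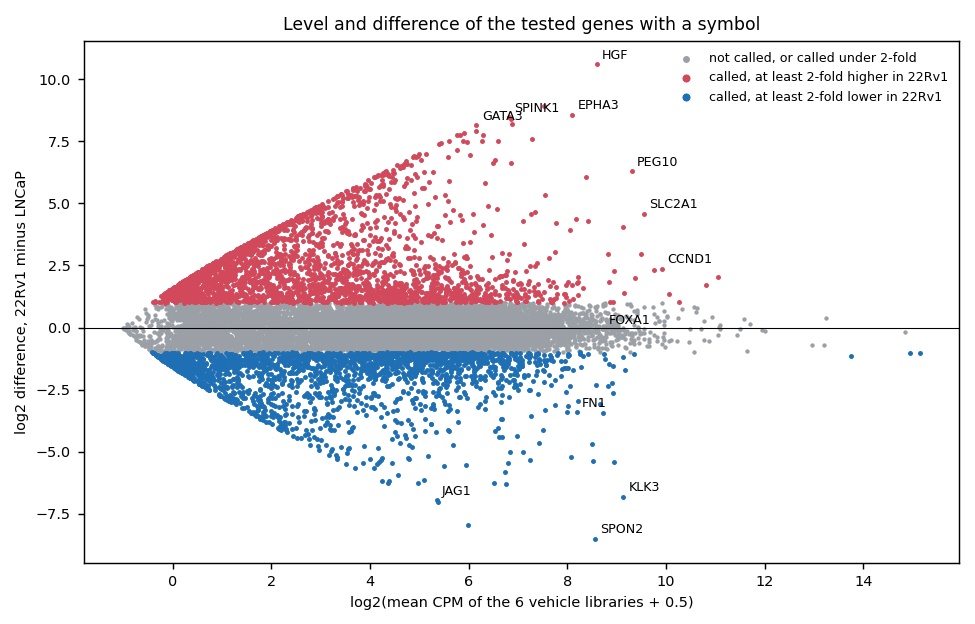
The plot shows 15866 tested genes with a symbol, with the mean level over the 6 vehicle libraries on the horizontal axis (log2 of CPM + 0.5) and the log2 difference of 22Rv1 minus LNCaP on the vertical axis. Red and blue points are genes called at an adjusted p under 0.05 with at least a 2-fold difference. HGF is the highest point at 10.59 and SPON2 the lowest at -8.50.

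Most classical androgen-activated genes were lower in 22Rv1, while the pioneer factor FOXA1, which opens chromatin at androgen-responsive sites, was not called different. FOXA1 was at 425, 430.2 and 441 CPM in the LNCaP libraries and 412, 416 and 416 CPM in those of 22Rv1. The libraries did not overlap, but the difference was small, at -0.06 ± 0.04 with a 95% interval of -0.14 to 0.02 (limma adjusted p = 0.164), and its sign turned under scaling to total reads and under cyclic loess. HOXB13, a homeobox factor of the prostate, was lower in 22Rv1, at 218 ± 3.08 against 462 ± 22.0 CPM (-1.08 ± 0.05). The coactivator NCOA1 (-1.61) and the pioneer factor GATA2 (-1.19) were lower too. The coactivator NCOA3, at 30.02 CPM in LNCaP and 46.7 CPM in 22Rv1, was higher (0.63).

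Of 28 genes on a list of androgen-activated genes, 20 were lower in 22Rv1 and 4 higher (43% and 40.4% of all genes tested). By at least 2-fold 15 were lower and 4 higher, against 12.8% lower and 16% higher among all genes tested. The median difference of the list was -1.11, against -0.03 for all genes tested. The prostate-specific antigen gene KLK3 (chromosome 19, 50854915 to 50860764 on GRCh38.p14) was at 1111, 1079.7 and 1153 CPM in LNCaP and 11.4, 9.04 and 8.28 CPM in 22Rv1. Every LNCaP library was far above every 22Rv1 library, with a difference of -6.80 ± 0.07. The neighbouring kallikrein KLK2 (chromosome 19, 50873439 to 50880567) was at 182, 173 and 179 CPM in LNCaP and 27.4, 26.4 and 26.5 CPM in 22Rv1, a smaller separation (-2.71 ± 0.05). KLK4, the third prostate kallikrein, went the other way, from 55.8 CPM in LNCaP to 139.9 CPM in 22Rv1 (1.32 ± 0.05). TMPRSS2 (chromosome 21, 41464305 to 41508158), the membrane protease whose promoter is often fused to ETS genes in prostate cancer, was at 146 ± 3.63 CPM in LNCaP and 14.7 ± 0.930 CPM in 22Rv1 (-3.27 ± 0.05). Also far lower in 22Rv1 were ADAM7, a gene of the ADAM metalloprotease family (-5.46 ± 0.15), the transcription factor MAF (-5.25 ± 0.12) and the cold-sensing channel TRPM8, which had 0 reads in the 22Rv1 libraries and 12.7 ± 0.845 CPM in LNCaP. FKBP5, the co-chaperone of steroid receptors and a strongly androgen-induced gene, was at 183, 168 and 168 CPM in LNCaP and 160.2, 158 and 161 CPM in 22Rv1. Its interval reached from -0.22 to -0.00, and it was not called (adjusted p = 0.0537). It was called without the second or the third LNCaP library (adjusted p = 0.0460 and 0.0427) and in a fit of the 6 vehicle libraries alone (0.0175), and its sign turned under scaling to total reads. Higher in 22Rv1 were HPGD, the prostaglandin-degrading dehydrogenase (2.98 to 43.9 CPM), ZBTB10 (2.28) and the elongation factor ELL2 (1.88).

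**Figure D2:**
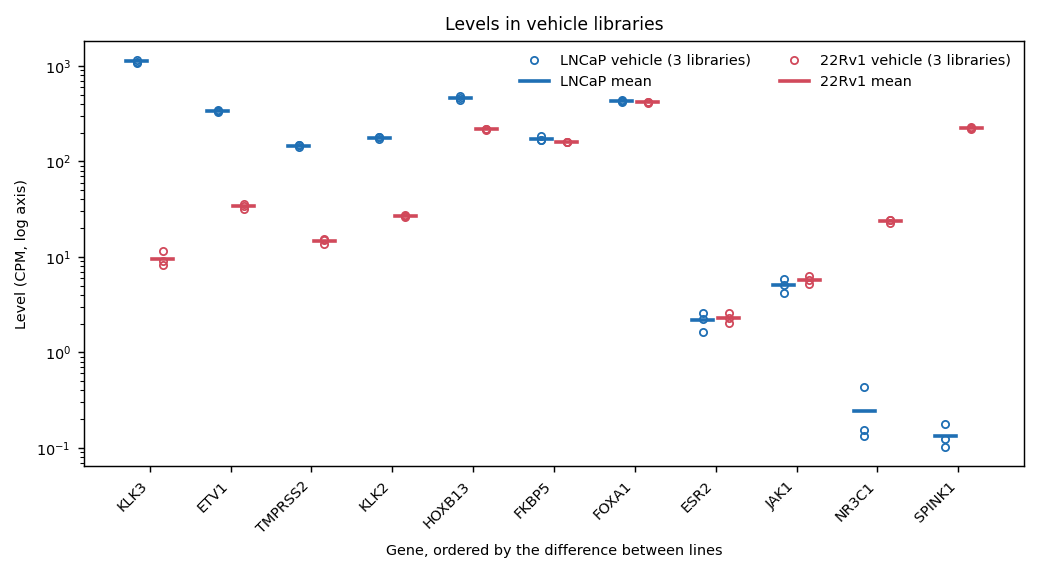
Levels of 11 genes in the 6 vehicle libraries in CPM on a log axis, with 1 open circle per library and a bar at the mean, LNCaP in blue and 22Rv1 in red. KLK3 at the left has means of 1115 CPM in LNCaP and 9.57 CPM in 22Rv1, the 2 groups of FOXA1 lie close together, and SPINK1 at the right has means of 0.134 and 224 CPM.

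The promoters of KLK3 and KLK2 are shown because these neighbouring genes, which arose by duplication, have much alike upstream sequences and differ in how far the lines stood apart. The letters are the 250 bases before the RefSeq start on GRCh38.p14, plus strand, chr19:50854665-50854914 for KLK3 and chr19:50873189-50873438 for KLK2. Capitals mark the androgen response half-site AGAACA, searched on both strands (AGAACA or TGTTCT).

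KLK3: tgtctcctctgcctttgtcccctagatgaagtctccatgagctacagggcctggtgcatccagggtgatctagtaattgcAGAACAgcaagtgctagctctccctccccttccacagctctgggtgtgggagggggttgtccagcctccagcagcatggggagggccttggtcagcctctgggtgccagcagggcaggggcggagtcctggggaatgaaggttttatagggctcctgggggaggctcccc

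KLK2: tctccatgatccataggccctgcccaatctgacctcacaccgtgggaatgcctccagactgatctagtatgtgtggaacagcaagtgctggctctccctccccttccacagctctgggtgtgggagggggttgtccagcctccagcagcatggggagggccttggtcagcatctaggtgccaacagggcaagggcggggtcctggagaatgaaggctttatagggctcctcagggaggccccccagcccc

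The 2 stretches were identical at 211 of 237 aligned bases (89.0%), and the longest run they share is 80 bases. KLK3 has 1 half-site, starting 170 bases before the start, within AGAACAgcaagtgct. The matching place in KLK2, 176 bases before its start, reads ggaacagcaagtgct, which shares 14 of 15 letters, and the half-site was not found in this window. The search took exact matches alone, so a near match such as this place in KLK2 was left unmarked. KLK2 is therefore not shown to lack an androgen response element, and whether either place acts in these cells was not tested. An exact half-site occurred in 14.8% of 35116 RefSeq windows of 300 bases around gene starts. For 19 genes of the androgen-activated list the table held 31 such windows, of which 5 (16.1%) had one, and among the list's genes lower by at least 2-fold it was 4 of 20 windows (20%), against 1 of 11 for its other genes. Over 16702 windows of tested protein-coding genes the share was 10.2%. The shares were not tested against each other. The full palindrome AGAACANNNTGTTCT occurred in 1 window in all and in none of the list.

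The distance between the lines at androgen-activated genes depended on the treatment both lines had received. An F test of the line-by-treatment terms called 27 of the 28 genes, against 3497 of 16026 genes overall (21.8%). The median difference of the list was -1.11 in vehicle, -1.75 under E2, -1.06 under OSU, -0.63 under Enza, -1.09 under E2 with Enza and -0.62 under OSU with Enza. Over all genes tested the median was -0.03 in vehicle, -0.03 under OSU and -0.01 under Enza. TMPRSS2 went from -3.27 in vehicle to -1.67 under Enza, with -4.01 under E2. KLK2 went from -2.71 to -1.69 and TRPM8 from -4.72 to -2.51 under Enza. Genes that were already higher in 22Rv1 moved further from 0 under Enza, HPGD from 3.68 to 4.63, ZBTB10 from 2.28 to 2.96 and KLK4 from 1.32 to 1.74. CHRNA2, a nicotinic receptor subunit named after its values were seen, went from -0.17 to 1.72. In all, 19 of the 28 differences were nearer to 0 under Enza than in vehicle and 9 farther from it, against 49.2% nearer among all genes tested. KLK3 remained far lower in 22Rv1 under each treatment, between -6.94 and -6.25. For FKBP5 the differences were -0.45 under E2, 0.21 under Enza and 0.45 under the pair. MED28, a Mediator subunit, was the 1 gene of the list without a called interaction (adjusted p = 0.182).

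**Figure D3:**
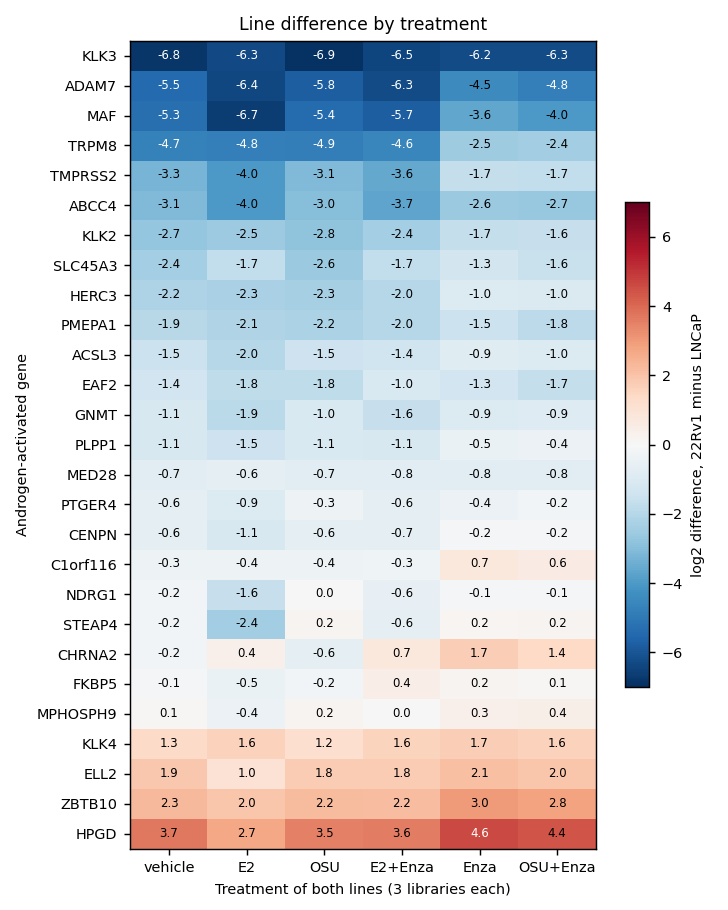
Log2 difference of 22Rv1 minus LNCaP for 27 of the 28 androgen-activated genes (rows) in libraries of the same treatment (columns, 3 libraries per line), with blue for lower and red for higher in 22Rv1. The columns of Enza alone and of OSU with Enza are paler than the vehicle column for TMPRSS2, TRPM8 and KLK2. That of E2 with Enza is not paler for TMPRSS2 (-3.57), and KLK3 is dark in all 6.

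Luminal prostate markers were lower in 22Rv1 almost throughout. Of 19 tested markers 17 were lower and 1 higher, and 13 were lower and 0 higher by at least 2-fold, against 43% lower and 12.8% lower by at least 2-fold among all genes. The median difference was -1.65. Several of them are also on the androgen-activated list. STEAP2, a metalloreductase of the prostate, was at 552, 526 and 509 CPM in LNCaP and 66.0, 65.1 and 72.8 CPM in 22Rv1 (-2.95 ± 0.04), with no overlap. SLC45A3, the transporter known as prostein, was lower as well (-2.36 ± 0.06). The secretory prostatic acid phosphatase gene ACP3 was at 12.9 and 4.57 CPM. The 1 higher marker was KRT19 (1.40 and 1.95 CPM, 0.38 ± 0.14), which was not called without the second LNCaP library (0.23, adjusted p = 0.154), and SPDEF, an ETS factor of secretory cells, was not called (-0.06, interval -0.14 to 0.02). KRT19 and SPDEF, like ACP3, are named outside the rule for named genes, after their values were seen.

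Genes whose products are targets of antibodies or radioligands in prostate cancer were mostly lower in 22Rv1 too. Of 16 tested, 11 were lower and 3 higher (43% and 40.4% of all genes), with 9 lower (12.8%) and 2 higher (16%) by at least 2-fold. STEAP1 was at 179.5 ± 6.68 CPM in LNCaP and 21.9 ± 0.763 CPM in 22Rv1 (-3.01 ± 0.05), and the stem cell antigen gene PSCA at 4.88 and 0.248 CPM (-2.84 ± 0.14). FOLH1, which encodes prostate-specific membrane antigen, was at 823 ± 8.95 CPM in LNCaP and 418 ± 11.4 CPM in 22Rv1 (-0.98 ± 0.04). NECTIN4, an adhesion protein, was lower (-2.31 ± 0.09). On the higher side were the glypican GPC3 (1.89 ± 0.09), tissue factor F3 (0.0308 to 1.24 CPM) and the complement regulator CD46 (0.83 ± 0.04). FOLH1, GPC3, F3 and CD46 were chosen after their values were seen.

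Among the other steroid receptors, 22Rv1 expressed the glucocorticoid receptor and LNCaP hardly did. NR3C1 (chromosome 5, 143277931 to 143435512), the glucocorticoid receptor gene, was at 0.435, 0.153 and 0.132 CPM in LNCaP, or 33 reads in all, and at 24.3, 24.6 and 22.8 CPM in 22Rv1 (5.07 ± 0.14). The mineralocorticoid receptor gene NR3C2 was higher as well, at 10.8 and 36.6 CPM (1.72 ± 0.07). The progesterone receptor gene PGR was low in both lines and lower in 22Rv1 (0.920 and 0.0750 CPM). ESR2, which encodes estrogen receptor beta, was low and overlapping at 2.26, 2.57 and 1.65 CPM in LNCaP and 2.04, 2.60 and 2.29 CPM in 22Rv1 (adjusted p = 0.587, interval of the difference -0.22 to 0.40).

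The steroid-converting enzymes went both ways. Of 20 tested, 8 were higher and 10 lower in 22Rv1, near the 40.4% and 43% of all genes. The 2-fold mark was passed by 6 higher and 5 lower genes (55%, against 28.8% of all genes). With a pseudocount of 2 these were 5 and 2. The AKR1C enzymes, which reduce keto groups on steroids and of which AKR1C3 makes testosterone from androstenedione, were each under 0.5 CPM in LNCaP. AKR1C3 was at 0.345 ± 0.220 CPM in LNCaP and 15.01 ± 1.06 CPM in 22Rv1, AKR1C1 at 0.321 and 26.4 CPM, and AKR1C2 at 0.425 and 35.2 CPM. These 3 genes have near-identical copies that share reads, so how the reads divide among them is uncertain. HSD17B11, a dehydrogenase of 17-beta steroids, was also higher (2.80 ± 0.10). In the other direction UGT2B17, which glucuronidates androgens for disposal, was at 17.97 ± 0.442 CPM in LNCaP and 2.89 ± 0.923 CPM in 22Rv1 (-2.49 ± 0.17), again within a family of near-identical genes. The sulfotransferase gene SULT2B1 was lower (-2.09 ± 0.15).

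Some ETS genes and SPINK1, which mark molecular classes of prostate cancer, differed widely, although the ETS family as a whole was near the share of all genes. ETV1 (chromosome 7, 13891229 to 13991425), the ETS gene that is rearranged in LNCaP, was at 331, 346 and 339 CPM in LNCaP and 31.7, 36.1 and 34.2 CPM in 22Rv1 (-3.30 ± 0.14). Its close relatives went the other way: ETV4 was at 0.765 ± 0.180 CPM in LNCaP and 46.4 ± 2.21 CPM in 22Rv1 (5.22 ± 0.14), and ETV5 at 0.587 ± 0.0328 and 33.3 ± 2.52 CPM (4.96 ± 0.15). Lower in 22Rv1 were the epithelial ETS gene EHF (760.0 ± 4.62 and 149 ± 3.40 CPM, -2.35 ± 0.04) and ETS1, which had 0 reads there and 3.43 CPM in LNCaP. Of 23 tested ETS genes 12 were higher and 7 lower (40.4% and 43% of all genes), with 5 and 3 by at least 2-fold (34.8%, against 28.8%). Their median of 0.22 was 0.14 with a pseudocount of 2. SPINK1 (chromosome 5, 147824582 to 147839196), a secreted trypsin inhibitor whose overexpression marks a class of ETS-negative tumours, was at 0.124, 0.102 and 0.176 CPM in LNCaP and 217, 225 and 229 CPM in 22Rv1, a 1668-fold ratio of CPM.

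The largest difference among the named genes was in a growth factor. HGF (chromosome 7, 81699010 to 81770047), hepatocyte growth factor, had 0 reads in all 3 LNCaP libraries and 745, 783 and 788 CPM in 22Rv1. Against a floor of 3 reads over the LNCaP group it was at least 34221-fold higher. MET, the receptor for HGF, was also higher in 22Rv1, at 2.71, 2.37 and 1.98 CPM in LNCaP and 28.5, 27.0 and 29.4 CPM in 22Rv1 (3.34 ± 0.14), so that ligand and receptor transcripts were both present in 22Rv1. MST1R, the receptor related to MET, was higher too (0.814 to 7.85 CPM). CACNA2D1, a calcium channel subunit gene next to HGF on chromosome 7, likewise had 0 reads in LNCaP and 107 ± 4.83 CPM in 22Rv1 (at least 4766-fold higher).

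GATA3 (chromosome 10, 8045333 to 8075198), a transcription factor of luminal breast and urothelial cells, was another gene with 0 reads in LNCaP, against 138, 148 and 139 CPM in 22Rv1, or at least 6294-fold higher. ANKRD30A, known as a breast differentiation antigen and also on chromosome 10, had 2 reads in LNCaP and 112 ± 2.60 CPM in 22Rv1, a ratio of 6586 with a 95% counting interval of 2057 to 61363. TSPAN8, a tetraspanin of the gut, was at 0.306 ± 0.163 CPM in LNCaP and 235 ± 7.97 CPM in 22Rv1, and ALB, serum albumin, at 1.11 ± 0.237 and 309 ± 7.88 CPM. The annexin partner S100A10 (0.0942 to 141 CPM), the synaptic vesicle protein SV2A (0.350 to 153 CPM) and the retinal dehydrogenase ALDH1A1 (0.0308 to 96.3 CPM) were also among the 15 genes with the largest differences. In each of these genes the 3 libraries of 1 line lay apart from the 3 of the other, as the rule for naming them required.

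On the lower side the leading gene was SPON2 (chromosome 4, 1166932 to 1208844), a secreted matrix protein of the spondin family, at 738, 757 and 762 CPM in LNCaP and 1.27, 1.82 and 1.67 CPM in 22Rv1 (-8.50 ± 0.08). ACKR3, the scavenger receptor for the chemokine CXCL12, was at 81.9 ± 3.65 CPM in LNCaP and 0.141 ± 0.0315 CPM in 22Rv1 (-7.01 ± 0.08). The histone variant H2AJ had 1 read in the 22Rv1 libraries and 126 ± 10.1 CPM in LNCaP, a ratio of 17604 with a counting interval of 3026 to 666031. LDAH, a hydrolase of lipid droplets, had 0 reads in 22Rv1 and 24.9 ± 1.24 CPM in LNCaP (at least 1118-fold lower). The phosphodiesterase PDE10A had 1 read in 22Rv1 and 36.7 ± 2.06 CPM in LNCaP. Others of the 15 lowest were NETO1, an auxiliary subunit of glutamate receptors (214 to 2.27 CPM), the zinc transporter SLC30A4 (180.5 to 1.87 CPM) and the peroxidase of basement membranes PXDN (40.3 to 0.0305 CPM). The adaptor EFS (-6.26), the receptor phosphatase PTPRM (-6.17), the vesicle GTPase RAB25 (-5.92) and the guanylate cyclase subunit GUCY1A1 (-5.80) were at similar distances. PPFIA2, a liprin scaffold at 216 CPM in LNCaP and 4.43 CPM in 22Rv1, was among the 5 lowest of the abundant genes.

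Ephrin receptors and their ligands, which signal between touching cells, were mostly higher in 22Rv1. All 20 tested genes were called (83.3% of all genes), 16 higher (40.4%) and 4 lower, and 9 were higher (16%) and 2 lower by at least 2-fold, with a median of 0.76. EPHA3 (chromosome 3, 89107621 to 89482134) was at 0.953, 0.917 and 0.968 CPM in LNCaP and 536, 552 and 558 CPM in 22Rv1 (8.57 ± 0.15). EPHB3 was at 21.8 ± 1.03 CPM in LNCaP and 416 ± 2.47 CPM in 22Rv1 (4.23 ± 0.04). The ligand genes moved in both directions: EFNB3 (3.60 ± 0.18) and EFNA2 (3.32 ± 0.18) were higher, and EFNA5 was far lower, at 296 ± 4.30 CPM in LNCaP and 6.86 ± 0.427 CPM in 22Rv1 (-5.33 ± 0.06). EPHA6 was higher by 2.53 ± 0.07.

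Of 21 other receptor tyrosine kinases 8 were higher and 9 lower, close to the 40.4% and 43% of all genes. By at least 2-fold these were 4 and 5 (42.9%, against 28.8% of all genes). Beside MET, the higher ones included the fibroblast growth factor receptor FGFR3 (4.76 ± 0.1501 CPM in LNCaP, 72.6 ± 2.26 CPM in 22Rv1) and the neuregulin receptor ERBB4 (0.0900 ± 0.0414 and 11.2 ± 0.814 CPM). Lower were PTK7, a co-receptor of WNT signalling (-2.70 ± 0.07), the collagen receptor DDR2 (-2.50 ± 0.17) and FGFR2, which had 0 reads in 22Rv1 and 1.96 CPM in LNCaP. IGF1R was lower as well (-2.20 ± 0.07), chosen after its value was seen.

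In the PI3K pathway, through which these receptors act, 15 of 25 genes were lower and 7 higher (43% and 40.4% of all genes). By at least 2-fold these were 5 and 3 (32%, near the 28.8% of all genes). PIK3CD, the catalytic subunit best known from leukocytes, was at 66.6 ± 3.48 CPM in LNCaP and 0.454 ± 0.0373 CPM in 22Rv1 (-6.14 ± 0.08). The regulatory subunits PIK3R1 (-2.59 ± 0.04) and PIK3R3 (-2.39 ± 0.05) were lower. The insulin receptor substrate IRS2 was higher (2.65 ± 0.08), as was PREX1, an exchange factor for RAC, at 0.0536 CPM in LNCaP and 2.08 CPM in 22Rv1. The list and its counts also hold PDK1, which encodes pyruvate dehydrogenase kinase, an enzyme outside this pathway, and which was lower (-1.92 ± 0.07).

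TGF-beta and BMP genes included several ligands and targets that LNCaP hardly expressed. Of 33 tested genes of the pathway, 16 were higher and 14 lower, near the 40.4% and 43% of all genes. By at least 2-fold these were 12 and 6 (54.5%, against 28.8% of all genes). The ligand gene BMP2 had 0 reads in LNCaP and 33.1, 35.0 and 34.7 CPM in 22Rv1 (6.12 ± 0.08). The ligand gene TGFB1 was at 0.0725 ± 0.0705 CPM in LNCaP and 20.8 ± 0.995 CPM in 22Rv1 (5.22 ± 0.12). ID genes, which encode inhibitors of helix-loop-helix factors and are classical BMP targets, were higher, with ID3 at 13.4, 11.4 and 10.7 CPM in LNCaP and 299, 311 and 324 CPM in 22Rv1 and ID4 at 0.116 ± 0.0537 and 64.7 ± 2.69 CPM. ID1 (3.83 ± 0.16) and ID2 (2.30 ± 0.10), named after their values were seen, were higher as well. The distant family member GDF15, a stress-induced secreted factor, was lower, at 206, 252 and 335 CPM in LNCaP and 7.62, 7.82 and 7.30 CPM in 22Rv1 (-5.01 ± 0.11), with an SD of 65.7 CPM over the 3 LNCaP libraries. BAMBI, the decoy receptor that blocks the pathway, was lower too (-4.44 ± 0.09).

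In the Notch pathway the ligand JAG1 (chromosome 20, 10637684 to 10673999) stood apart, at 82.4, 77.8 and 81.5 CPM in LNCaP and 0.168, 0.108 and 0.193 CPM in 22Rv1 (-6.95 ± 0.11). The target gene HES1 was higher in 22Rv1 (2.94 ± 0.08), as were DTX3 (2.25 ± 0.14) and DTX4 (2.12 ± 0.12), of the deltex ubiquitin ligases, and HEYL, which had 0 reads in LNCaP and 1.70 CPM in 22Rv1. The coactivator MAML2 was lower (-2.11 ± 0.17). Of 23 genes 12 were higher and 9 lower (40.4% and 43% of all genes), with 6 and 7 by at least 2-fold (56.5%, against 28.8%). In the WNT pathway 15 of 32 were higher and 12 lower, near the 40.4% and 43% of all genes. By at least 2-fold these were 8 and 6 (43.75%, against 28.8%). Receptor FZD8 (4.16 ± 0.834 to 77.8 ± 1.61 CPM) and the secreted antagonist DKK1 (0 reads in LNCaP, 6.17 ± 0.729 CPM in 22Rv1) were higher, as was the stem cell receptor LGR5 (0 reads and 2.28 ± 0.397 CPM). The ligands WNT7B (-3.05 ± 0.07) and WNT10A (-2.38 ± 0.14) and the feedback inhibitor NKD1 (-2.96 ± 0.14) were lower.

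Cell adhesion genes and mesenchymal markers were redistributed without a common direction. N-cadherin (CDH2, chromosome 18, 27932879 to 28177130) had 0 reads in LNCaP and 35.5, 38.2 and 41.2 CPM in 22Rv1, at least 1698-fold higher. P-cadherin (CDH3) was at 0.241 ± 0.136 CPM in LNCaP and 41.7 ± 2.34 CPM in 22Rv1 (5.84 ± 0.16). E-cadherin (CDH1), chosen after its value was seen, was lower by a small amount, at 397 ± 7.18 and 325 ± 7.35 CPM (-0.29 ± 0.04). The desmosomal cadherin DSC2 was lower, at 223 ± 8.91 CPM in LNCaP and 6.40 ± 0.204 CPM in 22Rv1 (-5.02 ± 0.07), and so was the claudin CLDN8 (-4.09 ± 0.11). The matrix protein fibronectin (FN1) was at 586, 503 and 513 CPM in LNCaP and 49.2, 50.4 and 49.9 CPM in 22Rv1 (-3.40 ± 0.07), opposite in direction to CDH2. Of 12 tested mesenchymal markers 6 were lower and 3 higher (43% and 40.4% of all genes), with 5 and 2 by at least 2-fold (58.3%, against 28.8%). Among the lower ones were the collagen COL1A1 (-2.49 ± 0.10) and the repressor SNAI2 (0 reads in 22Rv1, 3.32 CPM in LNCaP). The summed level of the mesenchymal markers was 559 to 642 CPM in LNCaP and 117 to 122 CPM in 22Rv1. Most of the LNCaP sum was FN1 alone, so the sum does not describe the markers in general. The epithelial junction list had 10 of 23 higher and 10 lower, near the shares of all genes. By at least 2-fold these were 4 and 6 (43.5%, against 28.8% of all genes).

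Of the integrins, 7 of 16 were higher and 5 lower (40.4% and 43% of all genes), with 6 and 2 by at least 2-fold (50%, against 28.8%). ITGB8 was at 0.396 ± 0.170 CPM in LNCaP and 29.7 ± 1.73 CPM in 22Rv1 (5.09 ± 0.16), and ITGA7, a laminin receptor, at 1.36 ± 0.0245 and 18.9 ± 0.621 CPM. ITGA6, another laminin receptor and a basal marker, was lower (-2.77 ± 0.06). The hyaluronan receptor CD44, on the basal list, was at 0.0828, 0.102 and 0.220 CPM in LNCaP and 29.0, 27.8 and 28.2 CPM in 22Rv1 (5.51 ± 0.11). The basal keratin KRT6A had 46 reads in LNCaP and 0 in 22Rv1. Of 6 tested neuroendocrine markers 4 were higher and 1 lower, each by at least 2-fold (16% and 12.8% of all genes), while 10 of 16 on the list did not pass the filter or are not in the table. The higher ones included the splicing factor SRRM4 (0.0899 ± 0.104 and 10.7 ± 0.420 CPM) and neuronal enolase ENO2 (11.9 ± 0.700 and 162 ± 2.31 CPM). The lower one was the decarboxylase gene DDC, at 24.6 ± 0.770 and 8.87 ± 0.249 CPM (-1.42 ± 0.07), named after its value was seen. The defining granule gene CHGA did not pass the filter, with 56 reads in LNCaP and 43 in 22Rv1, and synaptophysin (SYP) was not called (2.04 and 2.37 CPM).

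HOX genes, which encode positional identity, were largely higher in 22Rv1. Of 27 tested, 17 were higher and 5 lower, and 16 were higher by at least 2-fold, against 40.4% higher and 16% higher by at least 2-fold among all genes. Their median of 1.41 was 0.66 with a pseudocount of 2 and 0.89 under cyclic loess. HOXC10 was at 0.329 ± 0.0381 CPM in LNCaP and 16.5 ± 1.30 CPM in 22Rv1 (4.35 ± 0.14), and HOXB7 at 0.0316 ± 0.0276 and 9.38 ± 0.401 CPM (4.22 ± 0.11). HOXA13, a marker of the most posterior segment, had 0 reads in LNCaP and 6.84 ± 0.745 CPM in 22Rv1. The 2 genes lower by at least 2-fold were HOXB13, given above, and HOXA10 (-1.76 ± 0.14).

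Imprinted genes and genes of the testis included some of the widest gaps. PEG10, an imprinted gene derived from a retrotransposon, was at 15.9, 15.4 and 15.02 CPM in LNCaP and 1203, 1248 and 1296 CPM in 22Rv1 (6.29 ± 0.09), and SGCE, its divergent neighbour, at 1.12 ± 0.501 and 43.7 ± 1.57 CPM (4.83 ± 0.20). SNRPN had 0 reads in 22Rv1 and 2.11 ± 0.493 CPM in LNCaP. Of 17 tested imprinted genes 9 were higher and 6 lower (40.4% and 43% of all genes), and 58.8% passed the 2-fold mark, against 28.8%. Cancer-testis genes were split: MAGEA4 (0.203 ± 0.117 to 232 ± 12.4 CPM), CTAG1B (0.0276 to 119 CPM), CTAG2 (0.201 to 125 CPM) and SSX2 (0.258 to 107 CPM) were higher, while GAGE1 (17.6 to 0.116 CPM) and MAGEA10 (20.1 to 0.242 CPM) were lower. Of 15 tested, 7 were higher and 8 lower (40.4% and 43% of all genes), and the 2-fold mark was passed by 7 and 3 (66.7%). Many of these genes have near-identical copies on chromosome X, so the division of reads within a family is uncertain.

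Replication-dependent histone genes were mostly slightly higher, with 31 of 43 higher (40.4% of all genes) and 5 lower, while 8 and 2 passed the 2-fold mark (23.3%, against 28.8% of all genes). A few differed by far more: H4C4 was at 0.258 ± 0.0548 CPM in LNCaP and 370.1 ± 14.5 CPM in 22Rv1 and H3C3 at 0.220 ± 0.0305 and 155 ± 9.35 CPM, with H2BC3 (6.86 ± 0.18) and H4C13 (6.60 ± 0.13) next. Histone genes share near-identical coding sequence, which leaves single members uncertain.

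DNA repair genes as a group were near the shares of all genes, and genes induced by DNA damage were mostly lower in 22Rv1. The mismatch repair gene MSH3 was lower (-1.92 ± 0.08), and MSH6, of the same pathway, was not called (85.1 and 86.2 CPM). The BRCA1 partner BARD1 was at 157 ± 4.01 CPM in LNCaP and 41.8 ± 0.650 CPM in 22Rv1 (-1.90 ± 0.04), and MRE11, of the break-sensing complex, was lower too (-1.18 ± 0.06). Of 26 repair genes 10 were higher and 12 lower (40.4% and 43% of all genes), and 5 passed the 2-fold mark (19.2%, against 28.8%). MSH6 was chosen after its value was seen. Of 23 genes on a list for the arrest and death response to DNA damage 17 were lower and 5 higher, with 9 and 1 by at least 2-fold, against 43% lower and 12.8% lower by at least 2-fold among all genes (median -0.55). Among them, apart from GDF15, were the sestrin SESN1 (-2.09 ± 0.06), the metabolic regulator TIGAR (-1.81 ± 0.07) and TP53INP1 (-1.42 ± 0.04), while the death gene BBC3 was higher (1.94 ± 0.09). The cell-cycle inhibitor CDKN1A, chosen after its value was seen, was at 103 ± 4.59 and 42.8 ± 1.68 CPM (-1.25 ± 0.06).

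Cell-cycle genes differed mostly by small amounts, with cyclin D1 an exception. Of 33 genes of G1/S control and replication 19 were higher and 7 lower in 22Rv1 (40.4% and 43% of all genes). By at least 2-fold these were 6 and 1 (21.2%, against 28.8% of all genes). Cyclin D1 (CCND1, chromosome 11, 69641156 to 69654474) was at 314, 302 and 316 CPM in LNCaP and 1585, 1613 and 1651 CPM in 22Rv1 (2.38 ± 0.03), and its partner kinase CDK6 was higher as well (1.65 ± 0.07). The transcription factor E2F2 (1.83 ± 0.06) and the inhibitors CDKN1B (1.34 ± 0.04) and CDKN1C (0.275 to 2.66 CPM) were higher, and E2F3 was lower (-1.09 ± 0.05). Of 24 genes of G2/M and mitosis 15 were lower and 7 higher (43% and 40.4% of all genes). A single one passed the 2-fold mark (4.17%, against 28.8% of all genes), the kinase CDK1 (245 ± 4.05 to 100.0 ± 5.59 CPM, -1.29 ± 0.04). Cyclin B1 (CCNB1) was lower by less (-0.70 ± 0.04), and the kinetochore gene NUF2 was higher (0.65 ± 0.05).

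In carbohydrate metabolism, glycolysis and hypoxia genes were mostly lower, with the glucose transporter a large exception. SLC2A1 (chromosome 1, 42925353 to 42958868), which encodes GLUT1, was at 58.9, 55.8 and 64.6 CPM in LNCaP and 1379, 1446 and 1485 CPM in 22Rv1 (4.58 ± 0.05). Of 27 genes on the list 19 were lower and 6 higher (43% and 40.4% of all genes), with 5 and 2 by at least 2-fold (25.9%, against 28.8%). Their median of -0.48 was -0.31 without a filter on low values. EGLN3, an oxygen sensor, was lower (-2.85 ± 0.13), as were the mitophagy gene BNIP3 (-1.70 ± 0.07) and phosphofructokinase PFKP (-1.33 ± 0.06), and aldolase C (ALDOC) was higher (2.24 ± 0.07). In lipid synthesis all 29 genes were called, as were 83.3% of all genes. Of them 13 were higher and 16 lower (40.4% and 43% of all genes), with 5 and 7 by at least 2-fold (41.4%, against 28.8%). FADS2, a desaturase of polyunsaturated fatty acids, was at 777 ± 38.1 CPM in LNCaP and 71.4 ± 2.86 CPM in 22Rv1 (-3.43 ± 0.05), and the acyl-CoA synthetase ACSL1 at 190.3 ± 8.17 and 14.6 ± 1.40 CPM (-3.66 ± 0.05). Higher were the stearoyl-CoA desaturase SCD (847 ± 18.1 to 2747 ± 79.7 CPM) and, in the mevalonate branch, MVD (2.04 ± 0.05). Of 13 mitochondrially encoded mRNAs 10 were not called, and 0 were called at 2-fold or more.

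Interferon and antigen presentation genes were mostly lower in 22Rv1, by gene count. Of 30 interferon genes 19 were lower and 6 higher, with 11 and 3 by at least 2-fold, against 43% lower and 12.8% lower by at least 2-fold among all genes (median -0.51). IFI6 was at 9.81 ± 1.15 CPM in LNCaP and 0.657 ± 0.173 CPM in 22Rv1 (-3.16 ± 0.15), IFI44 at 6.37 ± 0.654 and 0.496 ± 0.136 CPM, and the RNA sensor TLR3 at 5.87 ± 0.752 and 0.755 ± 0.162 CPM. BST2, the virus-tethering protein, was higher (0.219 to 4.33 CPM). The kinase gene JAK1, known to be deficient in LNCaP, was at 5.92, 5.12 and 4.20 CPM in LNCaP and 6.32, 5.14 and 5.78 CPM in 22Rv1 and was not called (adjusted p = 0.252). Of 16 antigen presentation genes 13 were lower and 2 higher (43% and 40.4% of all genes), with 3 and 1 past the 2-fold mark (25%, against 28.8%). Their summed level was nevertheless higher in 22Rv1, at 2137 to 2212 CPM against 1344 to 1468 CPM in LNCaP. Most of that sum was the chaperone gene CALR, named after its values were seen, at 1168 ± 58.4 CPM in LNCaP and 2017 ± 31.3 CPM in 22Rv1 (0.79 ± 0.05). The activator of MHC class I genes NLRC5 was at 6.54 ± 0.392 CPM in LNCaP and 0.671 ± 0.299 CPM in 22Rv1 (-2.62 ± 0.15), and the trimming peptidase ERAP2 was lower (-1.72 ± 0.19). HLA-C was lower (39.2 to 18.2 CPM) and HLA-E higher (2.30 to 5.39 CPM), although reads of the highly variable HLA genes depend on how each line's alleles match the reference.

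**Figure D4:**
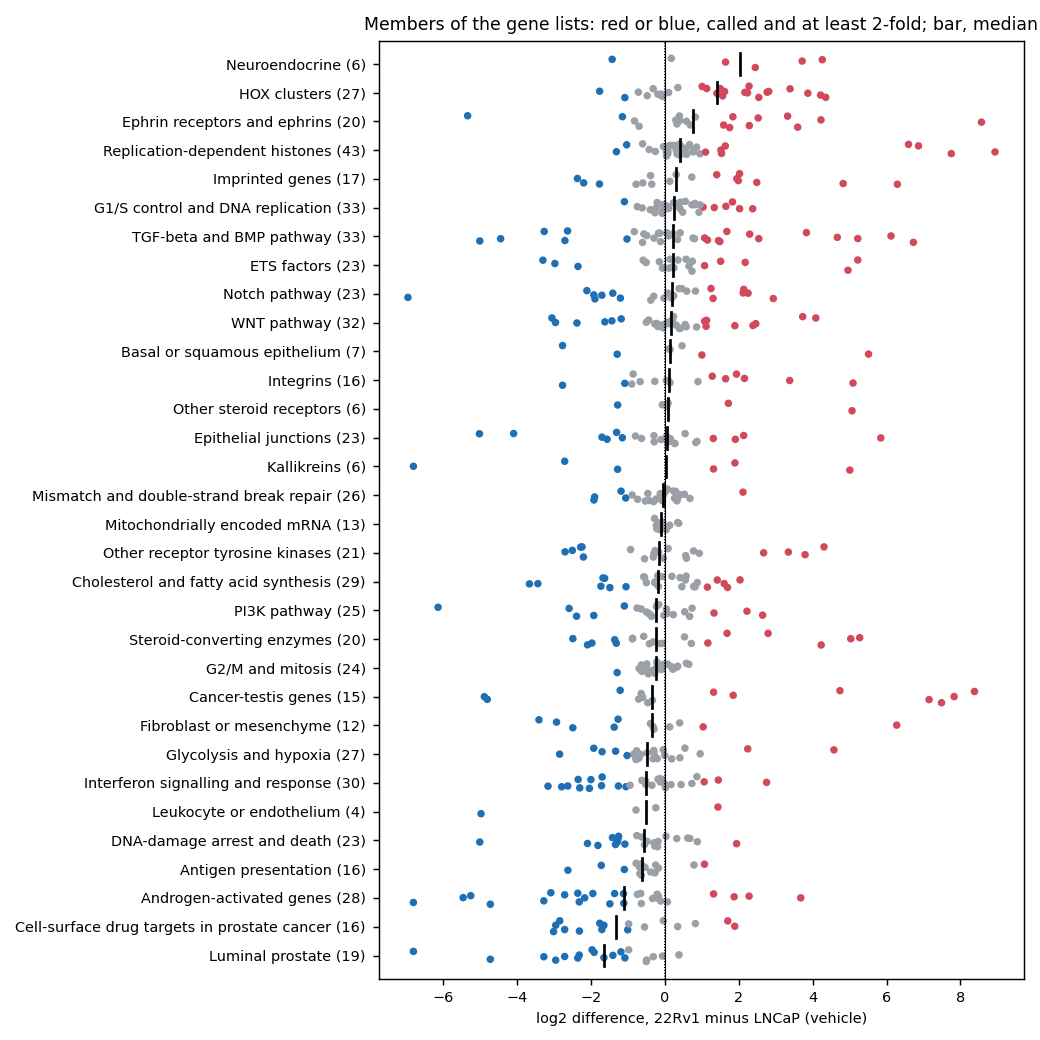
Log2 difference of 22Rv1 minus LNCaP in vehicle for the tested members of 32 of the 33 gene lists (number in parentheses), with a black bar at each list's median and the dotted line at the median of all genes tested. Lists are ordered by median, from neuroendocrine and HOX genes at the top to androgen-activated, cell-surface target and luminal genes at the bottom, and red or blue points are called with at least a 2-fold difference.

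For many genes the difference could be bounded as small. The 95% interval of the difference lay within -0.5 to 0.5 for 5201 genes (32.5%), and 3019 of these were nevertheless called different. Among abundant genes the 5 nearest to 0 were the histone variant H2AX (376 ± 17.1 and 376 ± 14.2 CPM, interval -0.11 to 0.12), the RNA-binding ATXN2L (interval -0.09 to 0.10), the nucleosome-binding HMGN1 (-0.08 to 0.08), the GTPase RAB1B (-0.09 to 0.10) and the splicing factor SRSF6 (-0.06 to 0.07). The intervals of FOXA1, FKBP5 and ESR2 given above were within these bounds as well, as was that of JAK1 (-0.11 to 0.45).

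Genes with large gaps in vehicle kept their direction in the treated libraries. Of 4612 genes called at 2-fold or more in vehicle, 4578 (99.3%) were called in the same direction in each of the 5 other treatments, and of all 13355 called genes 11267 (84.4%) were. The treated libraries are not in the vehicle means, but they share the variance estimate and the filter with the vehicle comparison. All 18 LNCaP libraries lay apart from all 18 of 22Rv1 for 9533 genes (59.5%). HGF stayed between 10.39 and 10.69 and SPINK1 between 8.32 and 8.61 over the treated groups. SPON2 ranged over the 18 libraries from 642 to 814 CPM in LNCaP and 1.27 to 2.19 CPM in 22Rv1. Beside the androgen-activated list, the F test called 22 of 33 genes of G1/S control and 16 of 29 of lipid synthesis, but 2 of 24 of G2/M and mitosis and 5 of 20 ephrin genes, against 21.8% of all genes.

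The median difference varied from chromosome to chromosome. For 13917 protein-coding genes, the median difference was highest on chromosomes 12 (0.38), 7 (0.37) and 8 (0.33) and lowest on chromosomes 15 (-0.36), 20 (-0.29) and 14 (-0.28). On chromosome 12, 63.7% of 732 genes were higher and 21.3% lower, and on chromosome 15, 24.9% of 445 were higher and 62.9% lower. The share of genes differing by at least 2-fold varied less, from 22.1% on chromosome 16 to 34.5% on chromosome 4. In windows of 10 Mb holding at least 20 such genes, the lowest median was on chromosome 2 between 120 and 130 Mb (-1.04, 20 of 23 genes lower) and the highest on chromosome 6 between 80 and 90 Mb (0.93, 28 of 34 higher). The window of chromosome 7 between 80 and 90 Mb, which holds HGF and CACNA2D1, had a median of 0.89 with 17 of 20 genes higher. DNA copy number was not measured in these data, and its part in the differences was not tested.

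**Figure D5:**
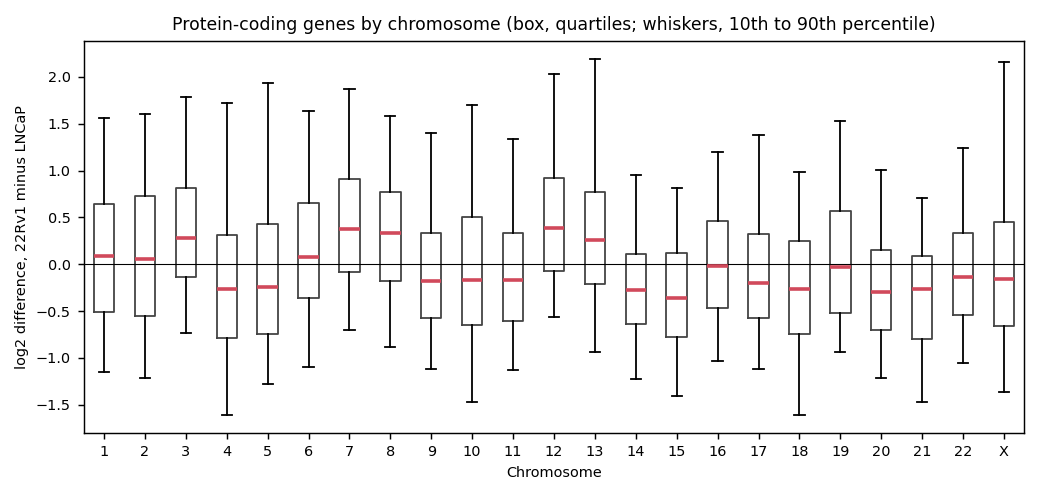
Log2 difference of 22Rv1 minus LNCaP for tested protein-coding genes by chromosome, with boxes for the quartiles, a red bar for the median and whiskers from the 10th to the 90th percentile. The boxes of chromosomes 7, 8 and 12 sit highest, those of 14, 15 and 20 lowest, and all of them span 0.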

How the data were processed

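Total RNA from LNCaP and 22Rv1 cells was sequenced from stranded libraries. Per the submitters' processing notes the authors used FastQC, Trimmomatic, featureCounts and edgeR with hg38, and the series' design text adds Rsubread, all without versions. The deposited values are a score, which the values show to be log2 CPM with 0.5 reads added, rescaled in every library to a column total of 1000000. Undoing this gave whole reads for 100% of values (tolerance 0.01), and levels are CPM over the authors' effective library sizes.

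Groups come from sample titles, and 1 library titled C4-2 vehicle carries a 22Rv1 tag and enters the fit, not the contrast. Its KLK3 level was 2165 CPM, against 2085 and 2130 CPM in the other C4-2 vehicle libraries and 8.28 to 11.4 CPM in 22Rv1 vehicle. For HGF it had 2.92 CPM, against 0 in the other C4-2 vehicle libraries and 745 to 788 CPM in 22Rv1 vehicle. Libraries of a line differed by more than sampling noise (chi-square per degree of freedom 4.50 to 39.4). The p-values rest on the spread between the 3 libraries within a group, pooled over all 18 groups of the fit. A linear model (limma 3.58.1, R 4.3.3, mean-variance trend) was fitted to log2(CPM + 0.5) of all 54 libraries with 18 group means and 36 residual degrees of freedom, keeping genes that reached 1 CPM in 3 or more libraries. P-values are two-sided and adjusted over all 16026 genes, and interactions were tested by an F test of 5 terms. The script was tested on simulated data with this design.

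RefSeq (GRCh38.p14) gave symbols for 18917 of 19225 gene IDs, and coordinates and promoters; proteins were not used here. Named genes are the 15 largest differences each way among called protein-coding or lncRNA genes with a symbol other than LOC or LINC, a mean of at least 1 CPM and no overlap, up to 6 per list by size, 16 set genes, and 5 abundant genes each way and nearest 0. A count test was not run because the unit is a score, and voom on the recovered reads took its place. The comparison, the 33 lists and the 16 genes were chosen with earlier results of these data known; some genes are not reported here. Counting intervals are exact 95% intervals and, like the floor of 3 reads, cover counting error only. Alternatives were another pseudocount, filter, scaling, weighting, set of libraries, a replicate block, and leaving out each library.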

Additional observations from a re-analysis of the deposited data

Results flagged for a closer look

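The difference between the lines depended on treatment for 3497 genes by the F test of the line-by-treatment terms. Of the 210 tested genes named here 92 were among them, and for 19 the difference under some treatment lay at least 1 from that in vehicle on the log2 scale. The values below give that distance, the treated minus the vehicle difference of 22Rv1 minus LNCaP, at the treatment where it was widest.

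Under Enza the difference of DSC3 moved by 1.77, MAF by 1.64, TMPRSS2 by 1.60 and SLC45A3 by 1.05, each from below 0 towards it. CHRNA2 moved by 1.89, from just below 0 to above it. PGR moved away from 0, by -1.04. Under OSU with Enza TRPM8 moved by 2.30, DSC1 by 2.22 and KLK2 by 1.08, also towards 0.

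Under E2 the widest distances were -2.49 for SNAI2, -1.52 for LAMA1 and -1.46 for IGF1R, all away from 0. The differences of STEAP1 (1.43), TP53INP1 (1.18) and BARD1 (1.04) moved towards 0 from below, and those of FZD8 (-1.04) and CDK6 (-1.04) towards 0 from above. The coagulation factor gene F3 (1.77) and ALDH1A1 (1.04) moved further above 0. SNAI2, TRPM8 and DSC3 had 0 reads in the 22Rv1 vehicle libraries, so that the difference in vehicle there follows the level in LNCaP.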

How the results depend on the processing

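Over 19 alternatives the limma test called between 12619 and 14938 genes, with 6111 to 7427 higher and 5935 to 7511 lower, and each count stayed within 1.5 times its main value. Leaving out each of the 6 vehicle libraries gave 12989 to 13108 called genes, 4588 to 4645 at 2-fold or more and 4891 to 4976 bounded as alike, with 3329 to 3541 interactions. Genes at 2-fold or more numbered 3199 with a pseudocount of 2 and 5257 with voom weights, against 4612. Among genes called both ways, 1 had the opposite direction under cyclic loess and 0 under the other alternatives. Without the C4-2 vehicle library whose labels disagree, an alternative added after seeing the data, 13352 genes were called.

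For deviations from the group mean, r was 0.135, -0.008 and 0.101 between same-numbered libraries of the 2 lines. With 3 libraries per line this does not decide whether the replicate numbers pair the samples. With the replicate block 13358 genes were called in the fit of 54 libraries and 12756, against 12619 without the block, in that of 6. Libraries 1 and 3 of both lines correlated best with their own number, and library 2 of neither did.

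Of 210 named genes 197 kept call and direction in every alternative. Scaling to total reads turned the sign of FOXA1 (0.066), FKBP5 (0.011), HMGN1 (0.12) and SPDEF (0.059), and cyclic loess that of FOXA1 (0.062), FKBP5 (0.0047), HMGN1 (0.11), SPDEF (0.047), ESR2 (-0.13) and SYP (-0.030). Leaving out each library in turn, the difference spanned 0 for ATXN2L (-0.031 to 0.036), ESR2 (-0.055 to 0.20), H2AX (-0.035 to 0.031), HMGN1 (-0.040 to 0.021), RAB1B (-0.033 to 0.028) and SRSF6 (-0.011 to 0.020), none of them called with all libraries. List medians near 0 changed sign with the setting, among them those of the kallikreins (0.02, -0.02 under cyclic loess) and the repair genes (-0.06, 0.06 under total reads). Depth limited the low genes: 1 read was worth 0.0207 to 0.0255 CPM, and genes listed with 0 reads are known only to lie below the floor.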

Other observations

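Some of the widest gaps lay side by side on a chromosome. Runs were counted as at least 3 neighbouring protein-coding genes of the table, each at 2 CPM or more in 1 line and at under 10% of that level in the other, a rule chosen after seeing the data. There were 6 runs with 21 genes low in 22Rv1 and 12 runs with 46 genes low in LNCaP, with coordinates from RefSeq GRCh38.p14. The share of all protein-coding genes that met the rule was not counted, so whether such genes cluster was not tested. The runs of GAGE genes (6 of those low in 22Rv1), CTAG genes and AKR1C genes hold near-identical copies that share reads, so their members are not independent. Copy number, silencing of a stretch and shared regulation cannot be told apart with these data.

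Among the runs low in 22Rv1, PRKACB, a catalytic subunit of protein kinase A, was at 715 CPM in LNCaP and 16.9 CPM in 22Rv1, next to SAMD13 (21.9 and 0.723 CPM) and DNASE2B (19.3 CPM and 0 reads) on chromosome 1 between 84078079 and 84415018. The desmocollins DSC3 (2.04 CPM and 0 reads), DSC2 (223 and 6.40 CPM) and DSC1 (2.83 and 0.0144 CPM) formed a run on chromosome 18. On the same chromosome ARHGAP28 (22.5 and 2.10 CPM), the laminin LAMA1 (4.07 and 0.182 CPM) and PTPRM (40.8 and 0.0754 CPM) were neighbours. NUDT12 (34.0 and 0.711 CPM), EFNA5 and FBXL17 (463 and 43.7 CPM) formed a run on chromosome 5.

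Among those low in LNCaP, AKR1E2 (0 reads and 2.21 CPM) extended the AKR1C run on chromosome 10. JAKMIP2 (0.0475 and 2.13 CPM) and the inhibitor SPINK5 (0.0509 and 2.86 CPM) flanked SPINK1 on chromosome 5 at far lower levels. The plasma protein gene AMBP (0.416 and 55.1 CPM), KIF12 (0.826 and 64.8 CPM) and COL27A1 (1.86 and 48.5 CPM) formed a run on chromosome 9. The lipoprotein genes APOE (0.239 and 2.85 CPM) and APOC1 (0.177 and 9.74 CPM) stood in a run with CLPTM1 (4.20 and 109 CPM) on chromosome 19. The zinc finger genes ZNF257, ZNF676, ZNF729 and ZNF98, between 12.7 and 20.7 CPM in 22Rv1 and at most 0.906 CPM in LNCaP, formed another. Protocadherin alpha genes made 2 runs of 6 and 8 genes on chromosome 5, but these genes share their last exons, so their reads are not independent.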
